A study of Mus musculus with 6 samples.

Results

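The Ms4a genes studied here are 7 named members of a mouse family of membrane proteins, *Ms4a4a*, *Ms4a4c*, *Ms4a6b*, *Ms4a6c*, *Ms4a6d*, *Ms4a7* and *Ms4a8a*, among 24972 gene rows in all. They were chosen by name after higher values in Lcn10-KO macrophages had been seen, so their difference between the genotypes is a description here and carries no test. RNA was sequenced from untreated bone marrow-derived macrophages of Lcn10-KO mice, which lack the lipocalin gene *Lcn10* (3 libraries), and of WT mice (3 libraries). All the macrophages were grown in medium with supernatant of L929 fibroblasts, which secrete the growth factor M-CSF. Neither the age nor the sex of the mice is in the labels. Nor do they say that replicates were different animals, so every p-value below speaks of library-to-library spread, some of which may be technical.

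Ms4a proteins span the membrane several times and sit near immune receptors. The founding members are CD20 of B cells, coded by *Ms4a1*, and the beta chain of the IgE receptor of mast cells, coded by *Ms4a2*. Other members are found in macrophages and microglia, where they are linked to pattern recognition receptors and to the lipid receptor Trem2. In humans, variants at the MS4A locus are associated with the level of soluble TREM2 and with the risk of Alzheimer's disease.

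The family occupies a cluster of 678.6 kb on chromosome 19 (10962293 to 11640851, GRCm38), annotated by GENCODE. Of the 7 genes, 6 lie within 283.8 kb between *Ms4a7* and *Ms4a6d*, and *Ms4a8a* lies apart, 239.9 kb from *Ms4a7*. *Ms4a7* (11321039 to 11336146) and *Ms4a6d* (11586604 to 11604849) are on the minus strand at the 2 ends of that block. Between them, on the plus strand, are *Ms4a4a* (11375523 to 11392790), *Ms4a4c* (11404770 to 11427246), *Ms4a6c* (11469366 to 11482192) and *Ms4a6b* (11516512 to 11531256). *Ms4a8a* (11067471 to 11081102) is on the minus strand.

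The family arose by duplication, and close relatives can share reads, so the sequences that relatives have in common are shown first. The longest identical runs of the coding sequences follow, read from the GENCODE transcripts in lower case with nothing capitalized, each under the pair that carries it.
Ms4a4b and Ms4a4c: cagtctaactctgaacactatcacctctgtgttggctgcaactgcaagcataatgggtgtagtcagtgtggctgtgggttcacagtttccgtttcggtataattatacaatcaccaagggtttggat
Ms4a6b and Ms4a6d: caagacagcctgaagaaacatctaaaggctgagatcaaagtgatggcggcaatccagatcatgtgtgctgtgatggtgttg
Ms4a6b and Ms4a6c: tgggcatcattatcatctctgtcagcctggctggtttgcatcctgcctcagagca
The first run is 127 bases long, from position 321 to 447 of both coding sequences counted from the start codon. The second is 81 bases long (100 to 180 in both) and the third 55 bases (389 to 443 in both). A read that lies wholly within such a run cannot be told apart by its letters. Over the aligned bases *Ms4a4b* and *Ms4a4c* are 91.7% identical, *Ms4a6b* and *Ms4a6c* 86.4%, *Ms4a6b* and *Ms4a6d* 81.8%, and *Ms4a6c* and *Ms4a6d* 79.6%.

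Most of each gene's sequence is nevertheless its own. Of all stretches of 31 bases in its annotated transcripts, *Ms4a6c* shares 14.2% with other genes of the family, mostly with *Ms4a6b*, and 21.9% with any gene. *Ms4a6b* shares 7.71% and *Ms4a6d* 5.10% with the family. *Ms4a4c* shares 16.3%, mostly with *Ms4a4b*. *Ms4a4a* and *Ms4a8a* share 0% with the family and *Ms4a7* 0.0445%. The values of *Ms4a4c* and of the Ms4a6 genes are therefore uncertain to the extent that the authors' counting split reads between relatives, and sums over relatives are given beside them.

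Promoters are shown for the 5 members of the block that have one in the RefSeq table (GRCm38.p6), to set the letters before their starts beside the values that follow. Each runs 5′ to 3′ along its gene, from 250 bases before the start to 50 bases after, with every match to GGAAGT, the core of binding sites of ETS factors such as PU.1, in capitals on either strand.
Ms4a7 (chr19:11336097-11336396, minus strand): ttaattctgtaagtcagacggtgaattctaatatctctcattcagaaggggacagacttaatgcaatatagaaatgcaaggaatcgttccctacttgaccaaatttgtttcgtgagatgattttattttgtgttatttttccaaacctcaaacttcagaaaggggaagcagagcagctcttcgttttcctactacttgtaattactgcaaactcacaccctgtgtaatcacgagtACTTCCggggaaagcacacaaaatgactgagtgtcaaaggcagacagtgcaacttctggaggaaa
Ms4a4a (chr19:11375238-11375537, plus strand): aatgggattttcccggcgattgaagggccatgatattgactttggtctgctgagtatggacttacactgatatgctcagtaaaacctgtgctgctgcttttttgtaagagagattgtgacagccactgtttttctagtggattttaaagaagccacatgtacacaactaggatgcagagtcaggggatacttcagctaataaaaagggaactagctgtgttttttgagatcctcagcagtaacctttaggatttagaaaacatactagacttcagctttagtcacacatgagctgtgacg
Ms4a4c (chr19:11407411-11407710, plus strand): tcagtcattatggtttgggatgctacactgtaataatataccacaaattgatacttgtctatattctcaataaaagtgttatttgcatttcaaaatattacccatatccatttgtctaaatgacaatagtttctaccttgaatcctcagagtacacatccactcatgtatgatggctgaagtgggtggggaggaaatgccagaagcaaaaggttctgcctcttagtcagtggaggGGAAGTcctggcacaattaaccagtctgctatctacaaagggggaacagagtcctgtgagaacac
Ms4a6c (chr19:11469118-11469417, plus strand): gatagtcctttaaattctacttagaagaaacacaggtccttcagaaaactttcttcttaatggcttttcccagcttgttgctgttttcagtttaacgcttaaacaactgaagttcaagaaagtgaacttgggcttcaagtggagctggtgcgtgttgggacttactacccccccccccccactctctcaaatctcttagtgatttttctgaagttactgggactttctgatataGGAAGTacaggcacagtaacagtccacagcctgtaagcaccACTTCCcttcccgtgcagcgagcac
Ms4a6b (chr19:11518309-11518608, plus strand): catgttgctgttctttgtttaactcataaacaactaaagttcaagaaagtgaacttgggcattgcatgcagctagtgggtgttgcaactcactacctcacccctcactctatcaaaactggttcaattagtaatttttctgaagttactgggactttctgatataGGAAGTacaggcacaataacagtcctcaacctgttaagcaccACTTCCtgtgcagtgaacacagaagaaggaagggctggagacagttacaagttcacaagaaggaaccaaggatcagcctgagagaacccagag
The *Ms4a6b* and *Ms4a6c* promoters are relatives too. They align over 218 bases with 86.2% identity and share a run of 48 bases, printed here with no capitals.
Ms4a6b and Ms4a6c promoters: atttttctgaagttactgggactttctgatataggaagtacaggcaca
Read along the gene, a match begins 15 bases before the RefSeq start in *Ms4a7* and in *Ms4a4c*, and 16 bases before it in *Ms4a6c*, which has a further match 25 bases after the start. In *Ms4a6b* matches begin 85 and 43 bases before the start. The match at 85 bases and the *Ms4a6c* match at 16 bases both lie within the shared run of 48 bases. These 2 promoters are therefore not separate cases in the count that follows. GGAAGT was found in 4 of the 7 promoters of the members, which include a further start of *Ms4a7* and that of *Ms4a8a*, and in 23.8% of 32851 promoters of the same length. The longer ETS motif GAGGAAGT, which contains it, was found in 0 of 7 (3.2% of all promoters), as were the interferon-stimulated response element (3.44%), the ETS-IRF composite element (2.72%), the C/EBP motif TTGCNNAA (10.8%) and TATAAA (13.6%). TGANTCA, the AP-1 motif, was in 2 of 7, the *Ms4a8a* promoter and that of the further *Ms4a7* start (7.81%). Both strands were searched, and a match is a description of letters only.

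Values are normalized read counts as deposited. They total 20476668 to 20636260 in each library because of the scaling, and the libraries held about 18000000 to 24800000 reads, judged from the value of a single read (0.824 to 1.14 normalized counts). *Lcn10* is listed at 0 in all 6 libraries, so it cannot check the genotype labels. WT replicate 1 stands apart from the rest, at −26.3 on the first principal component of the tested genes against 9.92 to 15.3 in Lcn10-KO and −9.29 and −4.63 in the other WT libraries. For this reason the fold change of each tested member is also given without it.

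*Ms4a7*, which in the mouse brain marks macrophages of the borders and those derived from monocytes, was the most abundant member. It had 4947, 5527 and 5048 normalized counts in Lcn10-KO replicates 1 to 3, against 3357, 3931 and 3919.6 in WT replicates 1 to 3. All 3 Lcn10-KO libraries lay above all 3 WT libraries, with WT replicate 1 lowest. The means were 5174 ± 310.2 in Lcn10-KO and 3736 ± 328 in WT (SD, n = 3 each), and the log2 fold change was 0.47 ± 0.07 (SE), or 0.40 without WT replicate 1. In bulk RNA, more cells with a transcript and more of it per cell cannot be told apart.

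*Ms4a6d*, which in mouse macrophages has been described as a partner of the receptor Vsig4 in restraining the Nlrp3 inflammasome, differed the least. It had 1932, 2162 and 2019 normalized counts in Lcn10-KO, against 1721, 1759.7 and 1837 in WT. The groups did not overlap, but the lowest Lcn10-KO library was close to the highest WT library. Its log2 fold change was 0.20 ± 0.05 (SE), and 0.18 without WT replicate 1.

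*Ms4a6c* and *Ms4a6b* are the neighbouring relatives of *Ms4a6d*. *Ms4a6c* had 1515, 1504 and 1391 normalized counts in Lcn10-KO, against 854, 1045 and 1146 in WT. Again the genotypes were separate, and the WT libraries were spread more widely than the Lcn10-KO libraries, with coefficients of variation of 4.68% in Lcn10-KO and 14.6% in WT. The log2 fold change was 0.54 ± 0.10 (SE), and 0.42 without WT replicate 1. *Ms4a6b* had 401, 493 and 451 normalized counts in Lcn10-KO, against 167, 268 and 297 in WT. All Lcn10-KO libraries were above all WT libraries, and WT replicate 1 lay well below the other WT libraries. Its log2 fold change was 0.91 ± 0.23 (SE), and 0.66 without WT replicate 1.

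Summed over *Ms4a6b*, *Ms4a6c* and *Ms4a6d*, which removes any effect of how reads were split among the 3, the level was 3847, 4159 and 3860.4 normalized counts in Lcn10-KO, against 2742, 3072 and 3280.0 in WT. The sums did not overlap either, and their log2 difference was 0.39. For *Ms4a6b* and *Ms4a6c* alone the difference of the sums was 0.62.

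*Ms4a4a*, whose human counterpart associates with the beta-glucan receptor Dectin-1 in macrophages, differed the most among the members. It had 264, 311 and 355 normalized counts in Lcn10-KO, against 59.4, 159 and 178 in WT. The genotypes were separate, and WT replicate 1 held less than either of the other WT libraries by a wide margin. The means were 310.2 ± 45.8 in Lcn10-KO and 132 ± 63.7 in WT (SD, n = 3 each). The log2 fold change was 1.36 ± 0.48 (SE), and 0.87 without WT replicate 1, so this 1 library moved the fold change by over 1.5 times on the log2 scale (at most 1.65, without WT replicate 3).

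*Ms4a4c* was expressed at a low level and did not separate the genotypes. It had 32.9, 33.5 and 7.25 normalized counts in Lcn10-KO, against 6.98, 12.4 and 12.4 in WT. Lcn10-KO replicates 1 and 2 stood above every other library, while Lcn10-KO replicate 3 lay among the WT libraries. The log2 fold change of 0.92 ± 0.54 (SE) therefore rests on 2 libraries, and it was 0.67 without WT replicate 1 and ranged from 0.57 without Lcn10-KO replicate 2 to 1.6 without Lcn10-KO replicate 3. *Ms4a4b*, its closest relative and known as a regulator of T cell activation in mice, had 4.25, 3.36 and 10.4 normalized counts in Lcn10-KO, against 1.15, 1.13 and 14.0 in WT. The sum of the pair was 37.1, 36.9 and 17.6 in Lcn10-KO, against 8.13, 13.6 and 26.4 in WT, and overlapped between the genotypes.

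*Ms4a8a*, described in mice as a gene of alternatively activated and tumour-associated macrophages, was at the level of single reads. It was listed at 0, 0.847 and 0 normalized counts in Lcn10-KO, against 1.13, 0 and 0.825 in WT. At this depth no difference could be seen, and the gene did not pass the filter of at least 10 normalized counts in at least 3 libraries. It was therefore neither tested nor higher in Lcn10-KO.

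**Figure D1:**
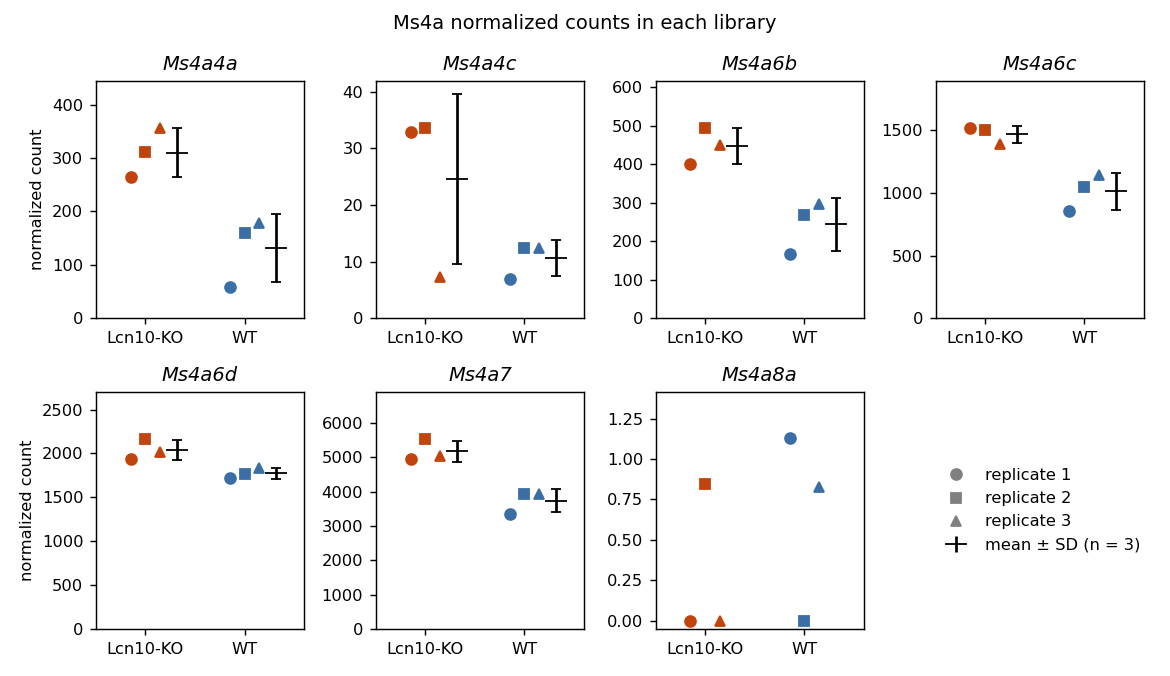
Normalized counts (y axis, a linear scale for each gene) of the 7 Ms4a genes in the 3 Lcn10-KO and 3 WT libraries (x axis). Symbols mark the replicate and black bars the mean ± SD over 3 libraries, left out for *Ms4a8a*, whose values are those of single reads. Lcn10-KO lies above WT without overlap in *Ms4a4a*, *Ms4a6b*, *Ms4a6c*, *Ms4a6d* and *Ms4a7*, and overlaps it in *Ms4a4c* and *Ms4a8a*.

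Counted together, 6 of the 7 members passed the filter on low values, and all 6 had a positive log2 fold change, with a median of 0.73, against −0.0011 over the 12091 genes tested. The median was 0.54 without WT replicate 1. By limma with Benjamini-Hochberg adjustment over all genes, 3 of the 6 were past an adjusted p of 0.05, *Ms4a6c*, *Ms4a6d* and *Ms4a7*, while 4.7% of all tested genes were called higher and 5.14% lower. All 3 Lcn10-KO libraries lay above all 3 WT libraries in 5 of the 6, and in 15.5% of all tested genes, and below them in 0 of the 6, and in 16.9% of all tested genes. Since the members were picked for this difference, their calls are no test of it. Nothing is read from these counts, nor from the leave-outs that follow, which only describe how the fit behaves. The call of *Ms4a7* was kept whichever library was left out. The call of *Ms4a6d* was lost without Lcn10-KO replicate 2 or 3, and that of *Ms4a6c* without Lcn10-KO replicate 1, 2 or 3. Without WT replicate 1, *Ms4a4a* and *Ms4a6b* were called as well, 5 in all.

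The members were picked for higher values in Lcn10-KO, so a shared difference between the genotypes was given in advance. WT replicate 1 had the lowest value of all 6 libraries in each of the 6 members, and Lcn10-KO replicate 2 had the highest in 4 of them. On the log2 scale around the mean of the 6 libraries, the members averaged 0.40, 0.55 and 0.16 in Lcn10-KO replicates 1 to 3, against −0.77, −0.21 and −0.12 in WT replicates 1 to 3. Among the Lcn10-KO libraries they did not all move alike. *Ms4a4a* was at 0.46, 0.70 and 0.89 in replicates 1 to 3, *Ms4a6c* at 0.32, 0.31 and 0.19, and *Ms4a4c* at 1.13, 1.16 and −0.91. The drop in WT replicate 1 was deepest in *Ms4a4a* (−1.67) and shallowest in *Ms4a6d* (−0.14). That library also stands apart over all genes, and the members' fold changes without it are those given above.

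**Figure D2:**
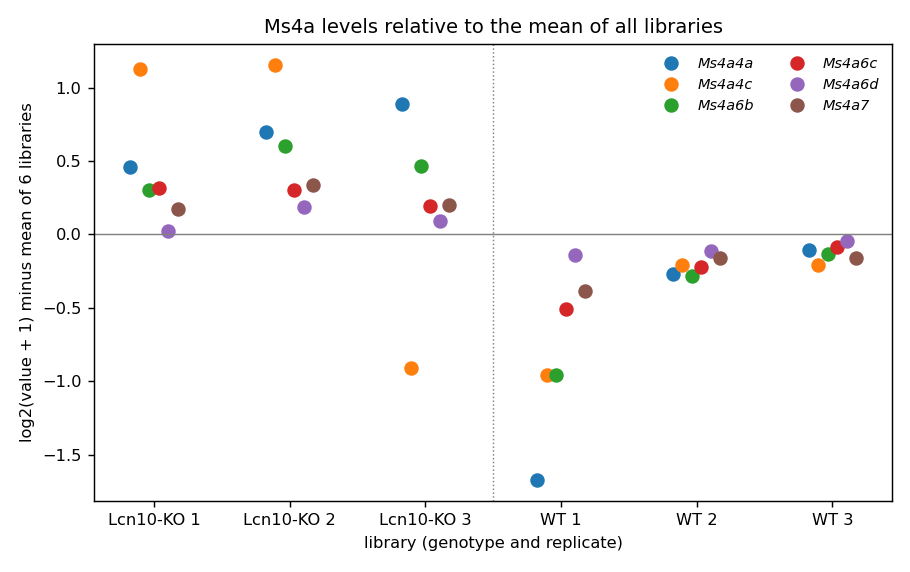
The log2(value + 1) of the 6 tested Ms4a genes in each library (x axis), minus the gene's mean over the 6 libraries (y axis, log2 units). All 6 genes lie below 0 in the 3 WT libraries and lowest in WT replicate 1, and all lie above 0 in the Lcn10-KO libraries except *Ms4a4c* in replicate 3, at −0.91.

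Levels were compared between members per kilobase of the longest coding transcript. The order in both genotypes was *Ms4a7*, with 3283 normalized counts per kb in Lcn10-KO and 2371 in WT, *Ms4a6d* (1437 in Lcn10-KO and 1250.1 in WT), *Ms4a6c* (798 in Lcn10-KO and 551 in WT), *Ms4a4a* (371 in Lcn10-KO and 158 in WT), *Ms4a6b* (167 in Lcn10-KO and 91.0 in WT), *Ms4a4c* (14.2 in Lcn10-KO and 6.15 in WT) and *Ms4a8a* (0.261 in Lcn10-KO and 0.603 in WT). The place of *Ms4a4a* above *Ms4a6b* rests on the lengths used, 836 bases for *Ms4a4a* and 2680 for *Ms4a6b*. Before division by length, *Ms4a6b* was the higher of the pair in both genotypes. Which annotated transcripts were expressed is not known, so the order and the shares hold for these lengths only. In Lcn10-KO no neighbours in this order overlapped over the 3 libraries. In WT the ranges of *Ms4a4a* (71.0 to 213 per kb) and *Ms4a6b* (62.3 to 111 per kb) overlapped, and the other neighbours did not. As a share of the 7 members' summed level per length, *Ms4a7* took 53.6% to 54.6% in Lcn10-KO and 52.5% to 54.2% in WT. *Ms4a6d* took 23.5% to 23.8% in Lcn10-KO and 27.0% to 30.8% in WT, and *Ms4a4a* 5.43% to 7.11% in Lcn10-KO and 1.80% to 4.50% in WT.

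The other Ms4a genes were at or near 0. Of 10 further rows with an Ms4a symbol, 4 (*Ms4a10*, *Ms4a13*, *Ms4a15* and *Ms4a18*) were listed at 0 in all 6 libraries. *Ms4a1*, *Ms4a2*, *Ms4a3*, *Ms4a4d* and *Ms4a5* did not exceed 2.13 normalized counts in any library. None of the 10 rows passed the filter, *Ms4a4b* included. The more distant relatives *Tmem176a* and *Tmem176b*, cation channel proteins of antigen-presenting cells coded side by side on chromosome 6, were well expressed. *Tmem176a* had 183, 189.9 and 166 normalized counts in Lcn10-KO, against 105, 165 and 151 in WT. Its log2 fold change of 0.38 ± 0.16 (SE) did not pass (limma adjusted p = 0.148), although the groups did not overlap, and it passed only without WT replicate 2 (0.51, adjusted p = 0.0457). Without WT replicate 1 it was 0.18 (adjusted p = 0.380). *Tmem176b* had 728, 680.2 and 606 in Lcn10-KO, against 367, 671 and 521 in WT, and overlapped (log2 fold change 0.41 ± 0.24, limma adjusted p = 0.356). It was 0.18 without WT replicate 1 and 0.61 without WT replicate 2, and did not pass in either fit. The pair overlaps in the genome on opposite strands, so without known strand use reads from the overlap cannot be told apart.

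The neighbourhood of the cluster was examined for the same direction. Among genes that lie within 1 Mb of the outermost Ms4a genes, or between them, 30 were tested, and 3 were higher and 2 lower in Lcn10-KO (limma adjusted p under 0.05). This is 16.7% called, against 9.84% of all tested genes, and the median log2 fold change was 0.01. Just below the cluster, *Ccdc86*, which codes for a nucleolar protein, fell by 0.28 ± 0.07 (SE) on the log2 scale (adjusted p = 0.0233). Other nearby genes, chosen for their place, did not pass. On the low side these were the splicing factor *Prpf19* (log2 fold change −0.11 ± 0.05) and *Tmem109* (−0.08 ± 0.04), and on the high side the mitochondrial ribosomal gene *Mrpl16* (0.05 ± 0.07) and the syntaxin *Stx3* (0.01 ± 0.05).

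Inside the cluster, between *Ms4a18* and *Ms4a8a*, *AW112010*, annotated as a long non-coding RNA (11047612 to 11055808), had 30.9, 27.0 and 24.9 normalized counts in Lcn10-KO, against 8.01, 11.4 and 13.2 in WT. Every Lcn10-KO library was above every WT library, at a low level. Its log2 fold change was 1.29 ± 0.30 (SE, limma adjusted p = 0.0202). *Mpeg1*, which codes for the pore-forming macrophage protein perforin-2, rose by 0.18 ± 0.04 on the log2 scale, to 86836 ± 1625 normalized counts in Lcn10-KO, against 76835 ± 3692 in WT (adjusted p = 0.0251). *Rab3il1*, an exchange factor for Rab GTPases, rose by 0.31 ± 0.07 (adjusted p = 0.0187), and *Fam111a*, a protease that acts in DNA replication, fell by 0.24 ± 0.04 (adjusted p = 0.0049). Only *Fam111a* of these 5 stayed past the threshold in every leave-out. The other 4 were each lost when Lcn10-KO replicate 2 or 3 was left out, *AW112010* and *Mpeg1* also without Lcn10-KO replicate 1, and *Mpeg1* also without WT replicate 3, with adjusted p of up to 0.115. The call of *Mpeg1* was also lost under quantile normalization (0.14, adjusted p = 0.194). With a pseudocount of 10 the log2 fold change of *AW112010* was 0.86.

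**Figure D3:**
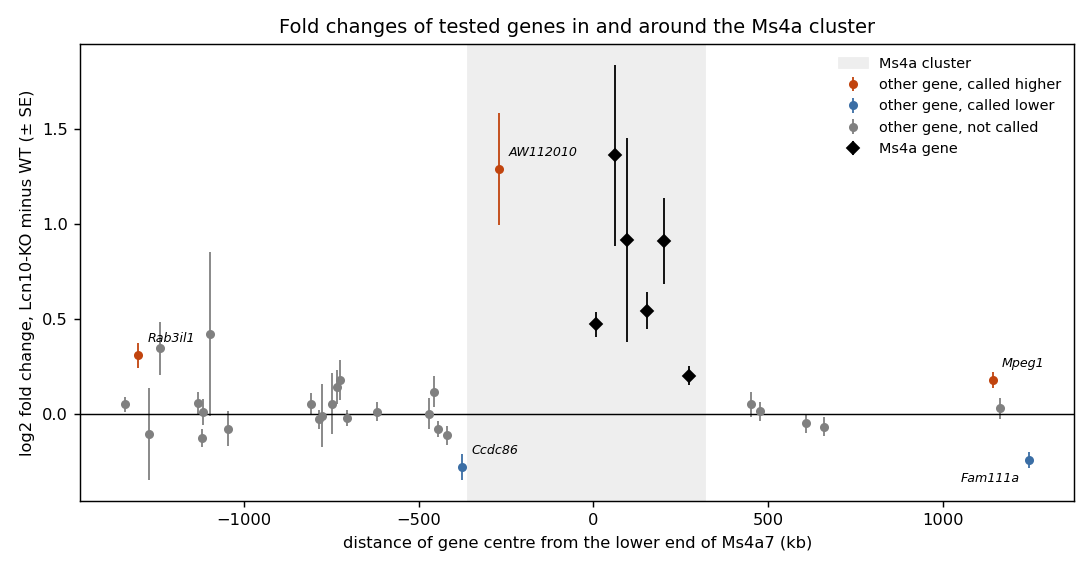
Log2 fold change, Lcn10-KO minus WT, with its SE (y axis) of the tested genes in and around the Ms4a cluster, by the distance of the gene's centre from the lower end of *Ms4a7* (x axis, kb). The grey band spans the cluster, diamonds are the 6 tested Ms4a genes, and the 5 other genes past the threshold are named. The Ms4a genes lie between 0.20 and 1.36, and most genes outside the cluster lie near 0.

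Receptors and enzymes that have been linked to Ms4a proteins moved in both directions. Among the 10 tested, limma called 2 higher and 2 lower at an adjusted p under 0.05, or 40.0% against 9.84% of all tested genes, and the median log2 fold change was 0.10. *Fcgr3*, an activating receptor for IgG, rose to 9423, 10221 and 10105 normalized counts in Lcn10-KO, against 6738, 7587 and 8059 in WT (log2 fold change 0.41 ± 0.06, SE, adjusted p = 0.00478). *Tyrobp*, the signalling adaptor of Trem2, rose by 0.18 ± 0.05 (adjusted p = 0.0449), a call lost without any single Lcn10-KO library or without WT replicate 1 (adjusted p of up to 0.198).

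Both decreases on the list were larger than the spread between libraries. *Adam10*, a protease that sheds Trem2 from the cell surface, fell to 5229.8, 4994 and 5159.5 normalized counts in Lcn10-KO, against 7089, 6253 and 6266 in WT (log2 fold change −0.35 ± 0.05, SE, adjusted p = 0.00264). *Nlrp3*, the inflammasome sensor, fell by 0.31 ± 0.05 on the log2 scale (adjusted p = 0.00458), to 1307 ± 49.9 in Lcn10-KO, against 1615 ± 54.2 in WT (SD, n = 3 each). The calls of *Fcgr3*, *Adam10* and *Nlrp3* were kept whichever library was left out.

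*Clec7a*, which codes for Dectin-1, had 2841, 2999.6 and 3045 normalized counts in Lcn10-KO, against 2055, 2569 and 2598 in WT, without overlap (log2 fold change 0.31 ± 0.09, SE), and did not pass by limma (adjusted p = 0.0595). It was past the threshold when any WT library was left out, though without WT replicate 1 the log2 fold change was smaller, at 0.20 (adjusted p = 0.00738). The groups overlapped in *Trem2* itself (0.12 ± 0.06, adjusted p = 0.216), and the log2 fold change was 0.05 without WT replicate 1. *Syk*, the kinase downstream of both receptors, had 0.14 ± 0.05 and did not pass (adjusted p = 0.082), but passed without WT replicate 2 (adjusted p = 0.0284) and under quantile normalization (adjusted p = 0.0445). *Vsig4*, described as the partner of Ms4a6d, was at the level of single reads, between 1.69 and 2.13 normalized counts in Lcn10-KO and between 0 and 1.14 in WT, and *Fcer1a*, the IgE-binding chain that pairs with the *Ms4a2* product, was listed at 0 throughout.

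**Figure D4:**
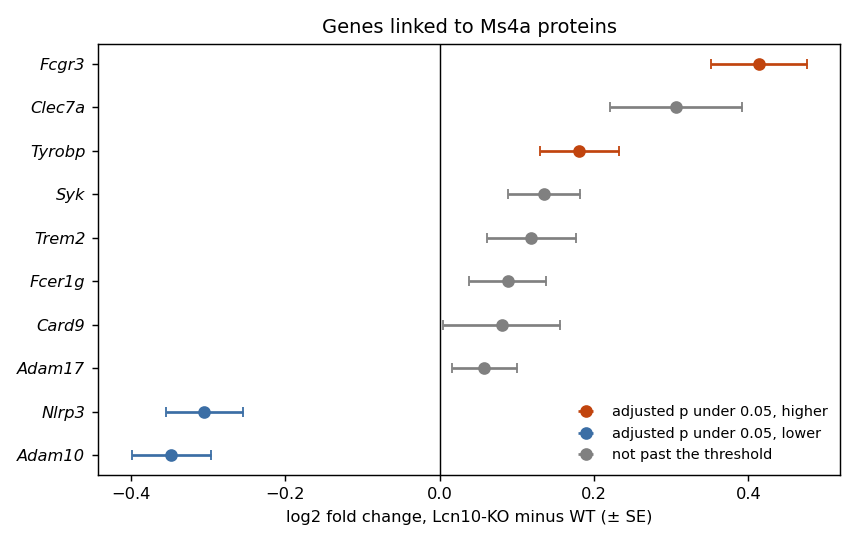
Log2 fold change, Lcn10-KO minus WT, with its SE (x axis) of the 10 tested genes linked to Ms4a proteins (y axis), coloured by the limma call. *Fcgr3* and *Tyrobp* are called higher, *Nlrp3* and *Adam10* lower, and the other 6 are not past the threshold.

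Gene lists of the macrophage states in which Ms4a genes are usually named were counted in the same fit. Among genes typical of resident and phagocytic macrophages, limma called 4 of 13 higher and 0 lower (30.8% against 9.84%), with a median log2 fold change of 0.16. At an unadjusted p under 0.05, 7 were higher and 0 lower. The 9 not called include *Folr2* (0.02 ± 0.04), *Pf4* (−0.03 ± 0.10) and *C1qa* (0.05 ± 0.04), in which the groups overlapped. They also include *Selenop* (0.80 ± 0.17, adjusted p = 0.0524) and *C1qc* (0.16 ± 0.05, adjusted p = 0.0694), both higher in Lcn10-KO without overlap. Of the 4 called, *C1qb* rose by 0.18 ± 0.05 (adjusted p = 0.0401), and the other 3 follow below. *Timd4*, *Lyve1* and *Vsig4*, also on the list, did not exceed 3.37 normalized counts in any library and were not tested. *Mertk*, a receptor for apoptotic cells, rose by 0.44 ± 0.06 (SE), to 1139.7 ± 62.2 in Lcn10-KO, against 840.4 ± 35.0 in WT (limma adjusted p = 0.00128). *Gas6*, its bridging ligand, rose by 0.26 ± 0.05 (adjusted p = 0.0136) and *Apoe*, an apolipoprotein, by 0.21 ± 0.05 (adjusted p = 0.033). The call of *Mertk* was kept in every leave-out, whereas those of *Gas6* and *Apoe* were lost when Lcn10-KO replicate 2 or 3 was left out (up to 0.0758 and 0.127), and that of *Apoe* also without Lcn10-KO replicate 1 or WT replicate 3. Under quantile normalization *Apoe* did not pass either (0.08, adjusted p = 0.368).

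Genes of interferon responses did not pass. Of 22 tested, 0 were called by limma, and 0 had an unadjusted p under 0.05, with a median log2 fold change of −0.09. The libraries were not even, however. Within Lcn10-KO, replicate 3 had the lowest value of every gene on the list except *Mx2*. *Irf7* had 398, 453 and 217 normalized counts in Lcn10-KO, against 254, 360 and 520 in WT. *Ifit3* had 176, 205 and 60.4 in Lcn10-KO, against 124, 173 and 187 in WT. *Ms4a4c* was also low in Lcn10-KO replicate 3, and a link was not tested. Of 12 tested genes of Ly6c-high monocytes, the blood precursors of macrophages, 1 was higher and 1 lower (16.7% called), and the median was −0.11. *Mgst1*, a microsomal glutathione transferase, rose by 0.51 ± 0.08 (SE, adjusted p = 0.0049) and *F13a1*, the coagulation factor XIII A chain, fell by 0.61 ± 0.13 (adjusted p = 0.0311). The call of *F13a1* was lost without any single Lcn10-KO library or WT replicate 1, with adjusted p of up to 0.142.

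Of 11 tested genes of alternative activation, 0 were higher and 1 lower (9.09% called), with a median log2 fold change of 0.04. At an unadjusted limma p under 0.05, 3 were higher and 1 lower. The 3 were *Mrc1*, *Irf4* (0.39 ± 0.16, adjusted p = 0.140) and *Pparg* (0.18 ± 0.08, adjusted p = 0.160). *Arg1*, arginase 1, fell to 14.9, 9.30 and 4.16 normalized counts in Lcn10-KO, against 30.7, 25.1 and 28.9 in WT. The groups did not overlap, at levels near the filter (log2 fold change −1.62 ± 0.39, SE, adjusted p = 0.0244, lost without Lcn10-KO replicate 2 or 3 or WT replicate 3, at most 0.0853). With a pseudocount of 10 its log2 fold change was −1.01. *Mrc1*, the mannose receptor, named after its values were seen, had 14118, 17184 and 16858 in Lcn10-KO, against 8644, 11633.5 and 11940.5 in WT, without overlap, and did not pass (0.59 ± 0.16, adjusted p = 0.0838).

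Markers of the macrophage and of other cells were set beside these values. Among 14 macrophage markers, limma called 2 higher and 3 lower, 35.7% against 9.84% of all tested genes. Higher were *Mertk* and *Adgre1* (log2 fold change 0.26 ± 0.06), and lower *Csf1r* (−0.23 ± 0.05), *C5ar1* (−0.26 ± 0.05) and *Cd14* (−0.17 ± 0.05). Their summed level, most of it *Lyz2*, was 320497 to 335075 normalized counts in Lcn10-KO and 308394 to 320092 in WT for all 14. The sums were 254 to 296 in Lcn10-KO and 188 to 206 in WT for B cell markers, most of it *Cd22*, an inhibitory receptor of B cells, which was higher (0.51 ± 0.11, limma adjusted p = 0.0173), 1 of 3 tested or 33.3%. *Cd79b* and *Ebf1* did not pass (0.41 ± 0.26 and 0.50 ± 0.30), and *Cd79a* was at no more than 1.06. Sums for T and NK cell markers were 7.45 to 18.7 in Lcn10-KO and 9.06 to 16.0 in WT, with *Cd8a*, *Nkg7* and *Ncr1* at 0. For mast cells and basophils they were 63.5 to 71.8 in Lcn10-KO and 45.6 to 76.1 in WT, with *Fcer1a* and *Mcpt4* at 0. Dendritic cell markers summed to 11.7 to 22.8 in Lcn10-KO and 18.2 to 19.8 in WT. The *Ms4a1* and *Ms4a2* values above are likewise at or near 0.

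Neutrophil markers summed to 851 to 961 in Lcn10-KO and 601 to 817 in WT, with *Ly6g* at 0. The largest of them, *Csf3r*, the receptor for G-CSF, was higher (0.50 ± 0.12, limma adjusted p = 0.0363), 1 of 5 tested or 20.0%. Endothelial markers summed to 1518 to 2107 in Lcn10-KO and 1406 to 1593 in WT, with 2 of 7 tested genes called higher by limma, *Stab2* and *Vwf*, or 28.6% against 9.84% of all tested genes. *Vwf* made up most of these sums. The upper end was Lcn10-KO replicate 2, which had 161 of *Pecam1* (49.5 and 89.3 in Lcn10-KO replicates 1 and 3). It also had 165 of *Cdh5* (40.5 and 93.7) and 121 of *Emcn* (24.5 and 62.4). Fibroblast markers summed to 3998 to 4485 in Lcn10-KO and 3039 to 4748 in WT, with 0 of 7 called. The upper end was WT replicate 1, the library that was lowest in every tested member. It had 326 of *Pdgfrb* (152 and 188 in WT replicates 2 and 3), but only 40.5 of *Dcn* (43.3 and 49.4). Erythroid markers summed to 16.0 to 18.7 in Lcn10-KO and 5.65 to 8.03 in WT, with 4 of them at 0. The part of these cells in the Ms4a values was not tested.

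Genes outside the family whose pattern over the 6 libraries was most like the members' mean standardized log2 level were *Ssh3* (Pearson r = 0.9985), *Ypel3* (0.998), *Mif4gd* (0.996), *Cd300c2* (0.996) and *Amdhd2* (0.996), given as a description over 6 libraries that share the genotype difference. The mean contains each member, so the members' own r with it, 0.72 for *Ms4a4c* and 0.933 to 0.985 for the others, is no measure of likeness to the rest. *Cd300c2*, a paired activating receptor of myeloid cells, had 2831, 2978 and 2818 normalized counts in Lcn10-KO, against 2361, 2519 and 2591 in WT. WT replicate 1 was lowest, as in all 6 tested members, and Lcn10-KO replicate 2 highest, as in 4 of them. *Ypel3* had 687, 764 and 671 in Lcn10-KO, against 436, 519.8 and 567 in WT, in the same order.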

How the data were processed

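RNA of 6 libraries of bone marrow-derived macrophages was measured by the authors. The submitters' processing notes name STAR 2.6.1a, Salmon 0.11.2, bcl2fastq, DESeq2 and build mm10. What each did, and any annotation, filter or strand setting, is not given in the sources used here. Deposited was a signal, read counts per gene that the authors scaled between libraries. They are not whole, and the value of a single read differs slightly between genes of a library, so whole reads were not recovered and no count test was run.

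Values were turned into log2(value + 1) for genes with at least 10 in at least 3 libraries (12091 genes) and genotype was fitted by limma 3.58.1 (R 4.3.3) with a mean-variance trend, robust estimation and Benjamini-Hochberg adjustment over all tested genes. This scale understates the change of low genes. The 7 members, the gene lists and the tests were chosen with earlier results of these data known. Named are all Ms4a rows, the flanking and partner genes past an adjusted p of 0.05, up to 3 such genes per state list, the 5 genes most like the members, and others for context. *Mertk* stands both in the resident macrophage list and among the macrophage markers. Positions and transcripts are from GENCODE M21 (GRCm38, the assembly that mm10 names), promoters from RefSeq. Coding sequences were aligned with Biopython 1.88.

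On simulated data for this comparison with 12137 genes, recovery was 76% for changes of 1.25-fold, 96% for 1.5-fold, 98% for 2-fold and 100% for 4-fold. The simulation gave every gene the same dispersion, the median of well expressed genes, and held no library set apart like WT replicate 1. These shares therefore need not hold for the real data. Alternatives were other scalings, pseudocounts, filters, no trend, a replicate block, each library left out, and sums over relatives. The level of 1 marker gene is not reported here. Figures were drawn with matplotlib 3.10.9.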

Additional observations from a re-analysis of the deposited data

How the results depend on the processing

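The median log2 fold change of the tested members (0.73) stayed between 0.54 and 0.84 when 1 library was left out and between 0.54 and 0.73 under the other settings, and no member's fold change changed sign in any fit. The mean-variance trend decides the calls, which for the members are a description only. Without it 14 genes were called in place of 1190, and 0 of the members, of the flanking, partner, Ly6c-high monocyte, alternative activation and resident macrophage genes. For alternative activation the count of 1 became 0 with a filter at 50 normalized counts and 2 with the replicate block. Leaving out 1 library gave 175 to 1664 calls over all genes, with 566, 207 and 175 without Lcn10-KO replicate 1, 2 or 3. It gave 1 to 5 calls among the members (1 without Lcn10-KO replicate 2 or 3, 5 without WT replicate 1), 1 to 5 flanking genes, 3 to 6 partner genes and 0 to 1 other family genes (*Tmem176a*). The state lists ranged from 1 to 2 (Ly6c-high monocyte), 0 to 2 (alternative activation), 1 to 5 (resident macrophage) and 0 to 0 (interferon-stimulated).

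Whether the replicate numbers pair the libraries is not settled by the check used. Deviations from the group means correlated at 0.038, 0.073 and 0.014 for numbers 1, 2 and 3, and at −0.063 to 0.026 for unlike numbers. Of the 6 libraries, 5 were closest to their own number. With the replicate block 1607 genes were called over all genes and 4 members, *Ms4a6b* being added, and *Clec7a* passed (adjusted p = 0.0025). Sums over relatives were chosen after the data were seen. The planned sum of members with near-identical transcripts was not run, because no pair came near identity. Depth limits what can be said of *Ms4a8a* and *Ms4a4c*, and 3 libraries per genotype limit the precision of all fold changes.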
